A study of Rattus norvegicus with 18 samples.

Results

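Genes for axon guidance ligands and their receptors were examined in rat hippocampal neurons before and after a form of the transcription factor MEF2 was switched on. They were taken as every gene of the semaphorin, plexin, neuropilin, Slit, Robo, netrin, Unc5, Dcc, ephrin and Eph receptor families whose symbol, by its first letters, stood alone on a probe set of the Affymetrix array. The rule found 59 genes on 98 probe sets, of 14217 named genes and 31042 probe sets in all, and 24 of the 59 had several probe sets. Unc50 and Unc5cl came in by the start of their symbols alone, Unc50 is no netrin receptor, and 57 genes remained without both. Family members that no single-symbol probe set carried, such as Ephb2, Efnb2 and Sema7a, were not analysed here.

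The neurons were kept in dissociated culture and received a lentivirus on day 3. On day 10 they were exposed to 4-hydroxytamoxifen (4OHT) for 0, 1 or 2.5 h, the 0 h groups being the neurons before the drug. One virus carried MEF2-VP16-ER, which joins MEF2 to the viral VP16 activation domain and to an estrogen receptor domain that responds to 4OHT. The control virus carried MEF2deltaDBD-VP16-ER, which lacks the DNA-binding domain. The design had 6 groups of 3 arrays, labelled as biological replicates 1 to 3. All groups therefore carried a virus and a VP16-ER fusion, and a group without virus or with the solvent alone was not analysed here. The promoter that drove the fusions, and whether the replicates were separate cultures or animals, are not given in the sources used here, so p-values measure the spread between these arrays.

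Guidance cues steer growing axons, and many of the same proteins act later at synapses and on dendrites. Semaphorins signal through plexins, the secreted class 3 members with neuropilins as co-receptors. Slits bind Robo receptors, netrins attract through Dcc and repel through Unc5 receptors, and membrane-bound ephrins bind Eph receptor tyrosine kinases on a neighbouring cell. MEF2 factors regulate transcription in response to neuronal activity and act on the number of excitatory synapses.

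Deposited values were linear intensities, and array medians lay between 190.4 and 197.0. Pairs of arrays correlated at 0.987 to 0.998, and no pair was identical. Changes were computed as differences of log2(intensity + 16), in log2 units, a scale that understates the change of a dim probe set. The word induction stands for the change since 0 h in neurons with MEF2-VP16-ER less the same change in neurons with the control fusion. All arrays entered 1 limma model over 31042 probe sets, and a probe set is called where its Benjamini-Hochberg adjusted p was under 0.05. Because arrays of the same replicate number deviated together, results are also given with replicate number as a block where it changes a call. The probe set with a gene's highest mean lay above the median probe set in 42 of the 59 genes and below the lower quartile in 6. Values after ± are standard errors from the fit without the block, with n = 3 arrays a group. The number of arrays limited the precision.

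Markers of neurons and of glia were both measured. All 8 general neuronal markers lay above the median probe set, as did 5 of 5 markers of hippocampal granule and pyramidal neurons, 7 of 8 of astrocytes and 6 of 9 of oligodendrocytes and their precursors, against 2 of 8 of microglia and 1 of 7 of endothelium and pericytes. In such bulk RNA fewer cells of a type and less RNA per cell cannot be told apart. The summed intensity of 6 excitatory neuron markers ran from 8692 to 10830 in MEF2-VP16-ER neurons at 2.5 h and from 11342 to 14665 in the other 5 groups. Within that list Neurod2 (-0.75 ± 0.15, adjusted p = 0.0736, 0.000554 with the block) and Neurod6 (-0.55 ± 0.17, adjusted p = 0.521, 0.0275 with the block) were called lower at 2.5 h with the block, while the glutamate transporters Slc17a7 and Slc17a6 stood at 0.04 and 0.08. Of these 6 excitatory markers 3 had a positive induction at 2.5 h, with a median of -0.04 and a highest value of 0.35. No marker of the other lists was called at 2.5 h in either fit. The part of this shift in the values below was not tested.

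After 2.5 h of 4OHT the semaphorin Sema6a and the Eph receptor Epha3 were called higher in MEF2-VP16-ER neurons with the replicate block, Sema6a by 1.78 and 1.58 times on 2 probe sets and Epha3 by 1.55 and 1.45 times on 2, and the semaphorin Sema4a was called lower, at 0.743 times. Without the block 1 of the 98 probe sets was called higher, of Sema6a, where 0.139% of all probe sets were called higher, and none lower, where 0.0387% of all were. With the block 4 probe sets of 2 genes, Sema6a and Epha3, were called higher (0.564% of all) and 1, of Sema4a, lower (0.374% of all). The other probe sets of Sema6a and Epha3 were not called, and the dimmest of Epha3 had a negative value. At an unadjusted p under 0.05 stood 11 of the 98 members and 1485 of all probe sets, in the fit without the block. The members as a whole did not lean one way: 49 of 98 inductions were positive with a median of 0.00 and a range from -0.44 to 0.84, against 51.5% positive and a median of 0.00 over all probe sets. The genes are described by their roles in turn, ligands with their receptors.

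**Figure D1:**
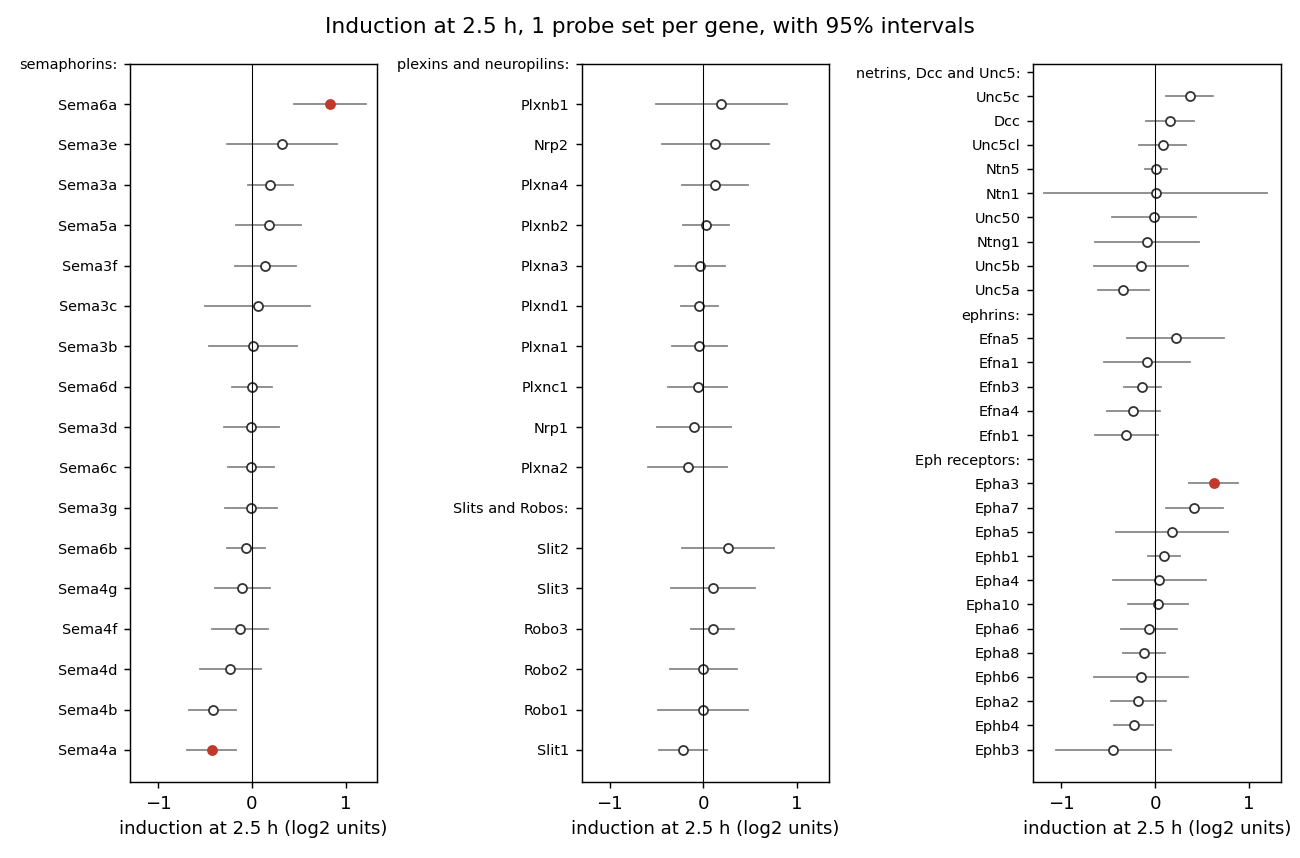
Induction at 2.5 h (x axis, log2 units) of each of the 59 genes on the probe set with its highest mean, in order within 6 role groups; points are fitted values, lines are 95% confidence intervals of the fit without the block, and filled points mark probe sets called with the replicate block. Sema6a (0.84) and Epha3 (0.63) stand to the right and Sema4a (-0.43) to the left, while the intervals of most other genes include 0.

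Sema6a encodes a transmembrane semaphorin that binds plexin A2 and plexin A4. It was measured by 5 probe sets. On 1376601_at, control neurons gave 799, 791 and 836 at 0 h, 810.4, 739.9 and 828 at 1 h and 769, 705 and 801 at 2.5 h. MEF2-VP16-ER neurons gave 886, 876 and 865 at 0 h, 871, 754 and 877 at 1 h and 1316, 1270 and 1332 at 2.5 h. All 3 arrays of the last group lay above all 15 others. The induction at 2.5 h was 0.66 ± 0.09 (fold 1.58, limma adjusted p = 0.00506, 0.000224 with the block), and it was 0.62, 0.69 and 0.67 within replicate numbers 1, 2 and 3. This call held in each of the 12 fits that left out 1 array (adjusted p from 0.00812 to 0.0236). It was lost without replicate 1 (0.371), 2 (0.0961) or 3 (0.141), where each group kept 2 arrays, and held in all 3 such fits with the block.

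The brightest Sema6a probe set, 1382868_at, gave 1910, 1999 and 2517 in control neurons at 0 h, 2053, 1901 and 2367 at 1 h and 2005, 1707 and 2225 at 2.5 h. In MEF2-VP16-ER neurons it gave 2265, 2032 and 2139, then 2111, 1925 and 2490, and 3393, 3312 and 3983 at 2.5 h. The last 3 values again exceeded the other 15. Its induction was the largest among the members at 0.84 ± 0.18 (fold 1.78), but it was called with the block alone (adjusted p = 0.103, 0.000438 with the block, 0.0667 with the block and without replicate 2). Replicate 1 gave 0.51 and replicates 2 and 3 gave 0.93 and 1.07. Another probe set, 1378005_at, stood at 0.43 ± 0.22 and was not called (adjusted p = 1.00, 0.118 with the block). The 2 dim ones, 1396046_at and 1376220_at, stood at 0.14 (95% interval -0.13 to 0.41) and 0.01 (-0.20 to 0.21).

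The receptors of Sema6a were not among the genes called. Plxna2 stood at -0.17 (95% interval -0.59 to 0.26) and Plxna4 at 0.12 (-0.22 to 0.47) on their brightest probe sets, and neither was called in either fit.

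The promoter windows of the 3 genes called at 2.5 h with the block are shown because MEF2 acts by binding DNA. Each runs 5′ to 3′ from 250 bases before to 50 after the start of transcription, from RefSeq's table for GRCr8, on the minus strand: chr18:42358491-42358790 for Sema6a, chr11:14920376-14920675 for Epha3 and chr2:176212209-176212508 for Sema4a. Capitals mark the letters TATTTTTA, an AT-rich stretch like the middle of a MEF2 site.
Sema6a: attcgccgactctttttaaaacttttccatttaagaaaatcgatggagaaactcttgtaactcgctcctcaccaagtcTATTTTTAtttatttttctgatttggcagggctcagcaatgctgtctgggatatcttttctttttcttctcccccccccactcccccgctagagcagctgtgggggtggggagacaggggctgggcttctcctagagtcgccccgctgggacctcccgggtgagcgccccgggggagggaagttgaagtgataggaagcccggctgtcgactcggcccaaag
Epha3: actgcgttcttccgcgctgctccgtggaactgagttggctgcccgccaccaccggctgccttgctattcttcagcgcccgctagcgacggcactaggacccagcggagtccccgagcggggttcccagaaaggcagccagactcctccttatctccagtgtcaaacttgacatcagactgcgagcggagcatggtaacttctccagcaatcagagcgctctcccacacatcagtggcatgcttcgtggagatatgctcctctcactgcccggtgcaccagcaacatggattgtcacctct
Sema4a: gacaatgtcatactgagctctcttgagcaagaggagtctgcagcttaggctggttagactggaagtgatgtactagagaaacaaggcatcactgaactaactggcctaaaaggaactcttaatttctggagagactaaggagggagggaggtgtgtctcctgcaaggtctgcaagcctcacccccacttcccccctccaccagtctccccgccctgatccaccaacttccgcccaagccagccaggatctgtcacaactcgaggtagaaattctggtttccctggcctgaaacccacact
Windows were found for 45 of the 59 genes (46 windows). Searched on both strands, the full MEF2 consensus was in 0 of these 46 and in 1100 of 33469 windows in the table (3.29%). TATTTTTA, which lies inside some consensus sites and was chosen after the Sema6a window was seen, was in 1 of 46, that of Sema6a with its first base 172 bases before the start, and in 2.69% of all. The cyclic AMP response element TGACGTCA was in 1 of 46, that of Epha2, and in 1.83% of all. These are matches of letters within short windows, and binding was not measured.

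Among the other 16 semaphorin genes, all 5 measured class 4 genes had negative values and 1 of them was called. Sema4a, a transmembrane semaphorin known for roles in immune cells and the retina, gave 754, 836 and 769.7 in control neurons at 0 h, 897, 903 and 812 at 1 h and 819, 995 and 872 at 2.5 h. MEF2-VP16-ER neurons gave 835, 911 and 883 at 0 h, 716, 809 and 761 at 1 h and 669, 832 and 713 at 2.5 h. The 2.5 h arrays of the 2 constructs overlapped, and the contrast combined a control change of 0.18 with one of -0.25 in MEF2-VP16-ER neurons. The induction was -0.43 ± 0.12 (fold 0.743, adjusted p = 0.382, 0.0165 with the block), with -0.43, -0.38 and -0.48 in replicates 1, 2 and 3. With the block its adjusted p was 0.0508 without MEF2-VP16-ER 0 h replicate 1, 0.0566 without control 0 h replicate 2, 0.0623 without MEF2-VP16-ER 0 h replicate 3 and 0.0509 without MEF2-VP16-ER 2.5 h replicate 3. Leaving out replicate number 1, 2 or 3 gave 0.138, 0.191 and 0.374.

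Sema4b, of the same class, stood at -0.42 ± 0.12 and missed the threshold in both fits (adjusted p = 0.376, 0.0578 with the block). Sema4d, the ligand of plexin B1, stood at -0.23 ± 0.15, Sema4f at -0.13 and Sema4g at -0.10, none of them called. Of the secreted class 3 members, Sema3e, the ligand of plexin D1, had the largest value at 0.32 ± 0.27 with a 95% interval from -0.26 to 0.91. Sema3a, the classical repellent that acts through neuropilin 1, stood at 0.20 ± 0.11. Sema3c, Sema3d, Sema3f and Sema3g lay between -0.01 and 0.14 on their brightest probe sets. In replicates 1, 2 and 3 the other Sema3f probe set, 1377892_at, gave -0.12, -0.40 and -0.13. The other of Sema3g, 1391856_at, gave 0.08, -0.26 and -0.15. Over the 17 semaphorin genes, 8 were positive with a median of -0.01.

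No plexin or neuropilin was called at 2.5 h in either fit. Of the 10 genes 4 were positive, with a median of -0.04 and a range from -0.17 to 0.19 on the brightest probe sets. Plexin B1, the receptor of Sema4d, had the highest value (0.19 ± 0.33) and plexin A2 the lowest (-0.17 ± 0.20). Nrp1 stood at -0.10 ± 0.19 and Nrp2 at 0.13 ± 0.27. The median standard error of the 10 inductions was 0.15. On the other Nrp1 probe set, 1370570_at, replicates 1, 2 and 3 gave 0.03, 0.09 and 0.13.

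Slits and Robos gave no call either. The 3 ligands stood at 0.26 ± 0.23 for Slit2, 0.11 ± 0.21 for Slit3 and -0.22 ± 0.12 for Slit1. The receptors Robo1 and Robo2 both stood at 0.00, with 95% intervals of -0.48 to 0.48 and -0.36 to 0.36, and Robo3 at 0.10.

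Among the netrin system, no gene was called at 2.5 h, and the values of the Unc5 receptors lay on both sides of 0. Unc5c, which mediates repulsion from netrin 1, stood at 0.37 ± 0.12 on its brightest probe set (adjusted p = 0.535, 0.247 with the block). The probe sets of Unc5c differed by 0.24. Unc5a stood at -0.34 ± 0.13 (adjusted p = 0.812) and Unc5b at -0.15 ± 0.24 and -0.30 ± 0.15 on 2 probe sets. The attractive receptor Dcc stood at 0.16 ± 0.12. Netrin 1 itself was at 0.01 ± 0.56 on its brightest probe set, whose 95% interval of -1.18 to 1.19 was the widest of the genes plotted by role, and the membrane-anchored Ntng1 was at -0.09 ± 0.26.

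Epha3, a receptor for the membrane-anchored ephrin-A ligands, had 3 probe sets. On 1385053_at, control neurons gave 416, 424 and 355 at 0 h, 414, 438 and 367 at 1 h and 388, 393 and 355 at 2.5 h. MEF2-VP16-ER neurons gave 431, 406 and 375 at 0 h, 443, 397 and 370.0 at 1 h and 639.7, 590.3 and 581 at 2.5 h. The 2.5 h arrays of MEF2-VP16-ER neurons were above all 15 others, and the other groups overlapped. The induction was 0.63 ± 0.12 (fold 1.55), with 0.65, 0.63 and 0.61 in replicates 1, 2 and 3. Its adjusted p was 0.0587 without the block, 0.0327 without control 0 h replicate 3, 0.0397 when 1 probe set per gene was tested, and 0.000469 with the block. The block call held in all 12 fits without 1 array and all 3 without a replicate number.

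A dimmer Epha3 probe set, 1385082_at, gave 168, 138 and 121 in control neurons at 0 h, 164, 157 and 141 at 1 h and 151, 124 and 110.1 at 2.5 h. In MEF2-VP16-ER neurons it gave 194, 156 and 159, then 176, 154 and 162, and 255, 211 and 219 at 2.5 h, the 3 highest of the 18 values. Its induction of 0.53 ± 0.17 was 0.52, 0.54 and 0.55 within the replicate numbers (adjusted p = 0.557, 0.00703 with the block). With the block it missed the threshold without replicate 1 (0.106), 2 (0.19) or 3 (0.0901). The dimmest, 1369379_at, stood at -0.17 ± 0.10, so the probe sets of the gene differed in sign. Sema6a and Epha3 were the 2 genes whose probe sets differed by more than 0.5, by 0.83 and 0.80.

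**Figure D2:**
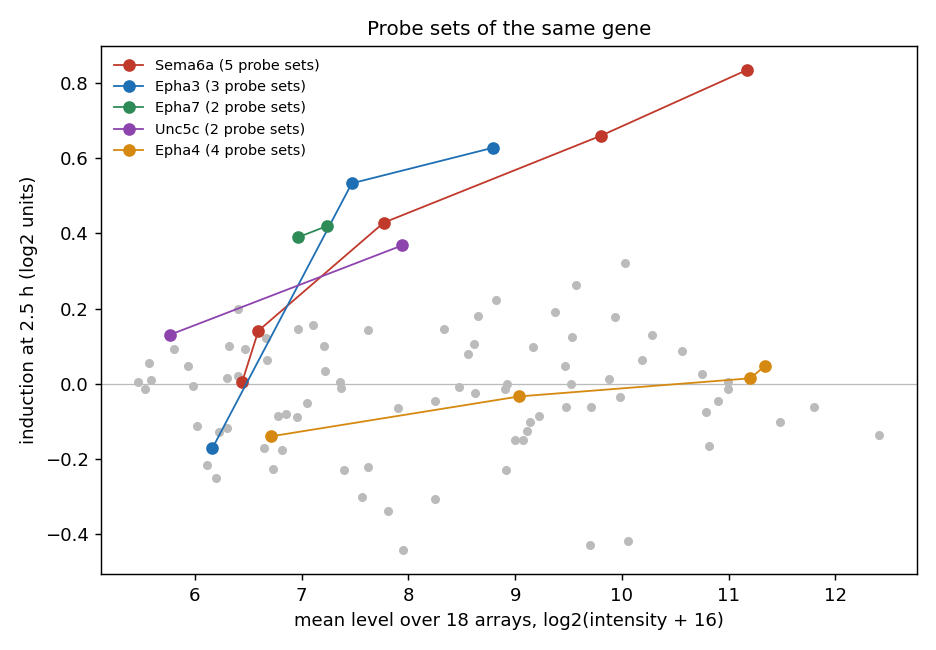
Induction at 2.5 h (y axis, log2 units) against the mean level over 18 arrays (x axis, log2(intensity + 16)) of the 98 probe sets; coloured points joined by lines are the probe sets of 1 gene and grey points are all others. The Sema6a probe sets run from 0.01 to 0.84 and those of Epha3 from -0.17 to 0.63, while the 4 of Epha4 lie between -0.14 and 0.05.

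Of the other 11 Eph receptor genes none was called at 2.5 h. Epha7 stood at 0.42 ± 0.14 (adjusted p = 0.648, 0.154 with the block) and at 0.39 ± 0.21 on a second probe set. Epha4, a receptor for both ephrin classes, lay between -0.14 and 0.05 on 4 probe sets, and Epha5 stood at 0.18 ± 0.28. The lowest value of all 98 was that of Ephb3 (-0.44 ± 0.29, 95% interval -1.06 to 0.17), and Ephb4 stood at -0.23 ± 0.10. Over the 12 genes 6 were positive, with a median of -0.02.

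The 5 ephrin genes were not called at 2.5 h, and on the brightest probe sets 1 of them was positive. Efna5, a ligand of Epha3, was that gene (0.22 ± 0.24). Efnb1 stood at -0.31 ± 0.16, Efna4 at -0.23 ± 0.13, Efnb3 at -0.14 ± 0.09 and Efna1 at -0.09 ± 0.22, for a median of -0.14. On the other Efna1 probe set, 1398273_at, replicates 1, 2 and 3 gave -0.08, 0.24 and 0.12.

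**Figure D3:**
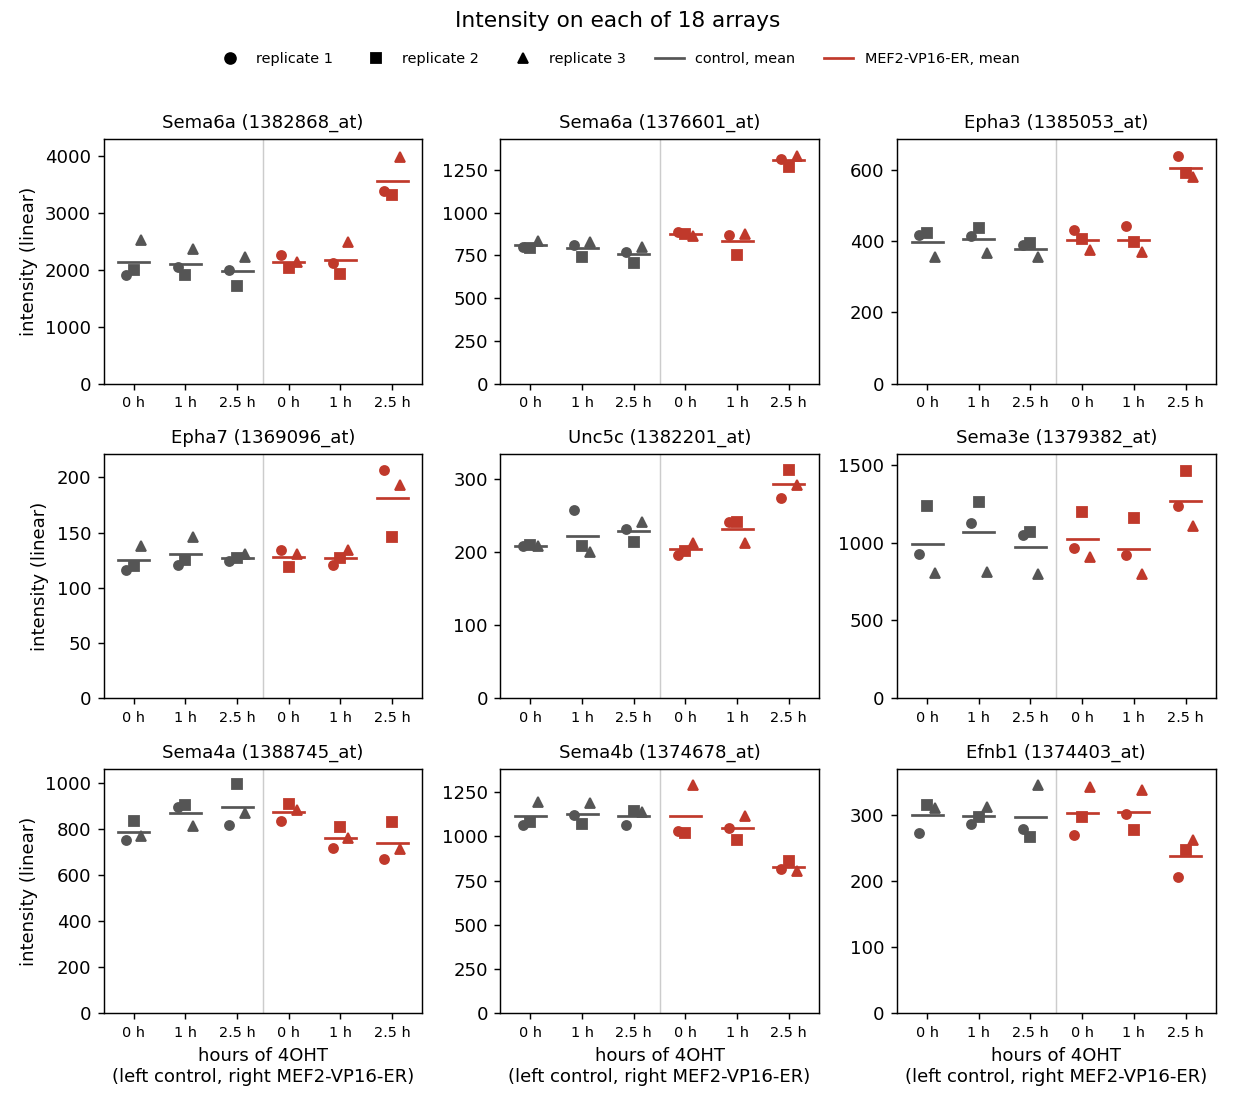
Deposited intensity (y axes, linear, from 0) on each of the 18 arrays for 9 probe sets against hours of 4OHT (x axes), with control neurons in grey on the left and MEF2-VP16-ER neurons in red on the right; symbols mark replicates 1 to 3 and lines are group means. The 3 arrays of MEF2-VP16-ER neurons at 2.5 h lie above all 15 others for Sema6a, Epha3, Epha7 and Unc5c and below all 15 for Sema4b and Efnb1.

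The change inside MEF2-VP16-ER neurons alone, 2.5 h against 0 h, uses 2 groups and has smaller errors, but it leaves the control neurons out. Here 4 probe sets of 3 genes rose, of Sema6a, Epha3 and Unc5c, against 0.506% of all probe sets called higher, and 1, of Sema4b, fell, against 0.283% called lower. With the block 8 probe sets of 5 genes were called higher (1.33% of all), adding Epha7 and Sema3e, and 4 genes lower (0.999% of all), which were Sema4b, Sema4a, Efnb1 and Nrp1. In this contrast the markers Neurod2 and Neurod6 fell by 0.65 ± 0.11 and 0.66 ± 0.12 (adjusted p = 0.00617 and 0.0158), and their part in the other values was not tested. Of all 98, 37 were positive with a median of -0.04, against 48.2% and 0.00 over all probe sets.

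Sema6a rose by 0.57 ± 0.06 on 1376601_at (adjusted p = 0.000307, 0.0821 without replicate 1) and by 0.72 ± 0.13 on 1382868_at (0.0106). The second call was lost without MEF2-VP16-ER 0 h replicate 2 (0.0695), MEF2-VP16-ER 0 h replicate 3 (0.0528) or MEF2-VP16-ER 2.5 h replicate 3 (0.0703), and without replicate 1 (0.259) or 2 (0.186) in all groups. With the block, 1378005_at was called as well at 0.43 (0.00627; 0.0544 without MEF2-VP16-ER 2.5 h replicate 3, 0.0855 and 0.16 without replicates 2 and 3). Epha3 rose by 0.56 ± 0.09 on 1385053_at (0.00383; 0.133 without replicate 1, 0.211 without replicate 2), and with the block 1385082_at was called at 0.40 (0.00201; 0.072 without replicate 2). In control neurons the same probe sets of Sema6a stood at -0.09 and -0.11, and that of Epha3 at -0.07, none of them called.

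Unc5c was called on its brightest probe set alone. It gave 197, 203 and 213 in MEF2-VP16-ER neurons at 0 h, 242, 242 and 213 at 1 h and 274, 313 and 293 at 2.5 h. Control neurons gave 209, 210.1 and 209 at 0 h, 258, 209 and 200.2 at 1 h and 232, 215 and 242 at 2.5 h. The rise was 0.49 ± 0.08 (adjusted p = 0.00713, 0.0028 with the block), and the induction over control neurons missed the threshold. Without the block the call was lost without replicate 1 (0.0731), 2 (0.403) or 3 (0.075), and when these 2 groups alone entered the fit (0.0586), and with the block without replicate 2 (0.123). Epha7, another receptor for ephrin-A ligands, gave 117, 120.2 and 138 in control neurons at 0 h, 121, 125 and 146 at 1 h and 124, 127 and 131 at 2.5 h. MEF2-VP16-ER neurons gave 134, 118 and 131 at 0 h, 121, 127 and 134 at 1 h and 206, 146 and 193 at 2.5 h, the last above all 15 other arrays, for 0.45 ± 0.10 (adjusted p = 0.0572, 0.00646 with the block). Without MEF2-VP16-ER 2.5 h replicate 2, its lowest array of that group, it was called without the block too (0.00354), as it was after median centring (0.0492) and with 1 probe set per gene (0.0448). With the block it was lost without replicate 1 (0.0504) or 3 (0.234). The other Epha7 probe set, 1388061_a_at, changed by 0.62, 0.14 and -0.05 in replicates 1, 2 and 3 and was not called. Sema3e gave 968, 1197 and 905 at 0 h and 1235, 1461 and 1107 at 2.5 h, groups that overlapped while each replicate number was higher at 2.5 h, for 0.31 ± 0.19 (1.00, 0.0368 with the block). That call was kept without MEF2-VP16-ER 0 h replicate 3 and lost without any 1 of the other 5 arrays or any replicate number (up to 0.247).

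On the low side, Sema4b gave 1028, 1019 and 1293 at 0 h, 1046, 981 and 1117 at 1 h and 819, 859 and 806 at 2.5 h in MEF2-VP16-ER neurons. Control neurons gave 1062, 1082 and 1196 at 0 h and 1067, 1145 and 1141 at 2.5 h, and no other array was as low as the 3 at 2.5 h. Sema4b fell by 0.41 ± 0.08 (adjusted p = 0.0292, 0.00247 with the block). Without the block the call was lost without MEF2-VP16-ER 2.5 h replicate 1 (0.102), 2 (0.0556) or 3 (0.138) or MEF2-VP16-ER 0 h replicate 3 (0.112), after quantile normalization (0.05), with these 2 groups alone (0.314), and without replicate 1 (0.344), 2 (0.259) or 3 (0.2) in all groups. With the block it was lost without replicate 3 alone (0.144).

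Efnb1, a transmembrane ephrin, gave 269, 296 and 342 in MEF2-VP16-ER neurons at 0 h, 301, 276 and 336 at 1 h and 206, 246 and 262 at 2.5 h, and in control neurons from 266 to 345. The 3 at 2.5 h were below all 15 other arrays, for -0.33 ± 0.11 (adjusted p = 0.405, 0.0219 with the block). Nrp1 gave 2840, 3305 and 2717 at 0 h and 2556, 2731 and 2237 at 2.5 h, for -0.23 ± 0.13 (0.978, 0.0401 with the block), while control neurons stood at -0.13. The other Nrp1 probe set, 1370570_at, gave -0.16, -0.20 and -0.34 in replicates 1, 2 and 3 and was not called. Its inductions over control neurons were positive, at 0.03, 0.09 and 0.13. Sema4a stood at -0.25 ± 0.09 (0.415, 0.0317 with the block). With the block the adjusted p of these 3 genes ran from 0.0253 to 0.125 for Efnb1, 0.0331 to 0.192 for Nrp1 and 0.029 to 0.167 for Sema4a when 1 array was left out. The call of Efnb1 was kept without MEF2-VP16-ER 0 h replicate 1 or 2.5 h replicate 2, that of Nrp1 without 2.5 h replicate 1 and that of Sema4a without 2.5 h replicate 2. All 3 were lost without any other array of the 2 groups and without any replicate number.

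**Figure D4:**
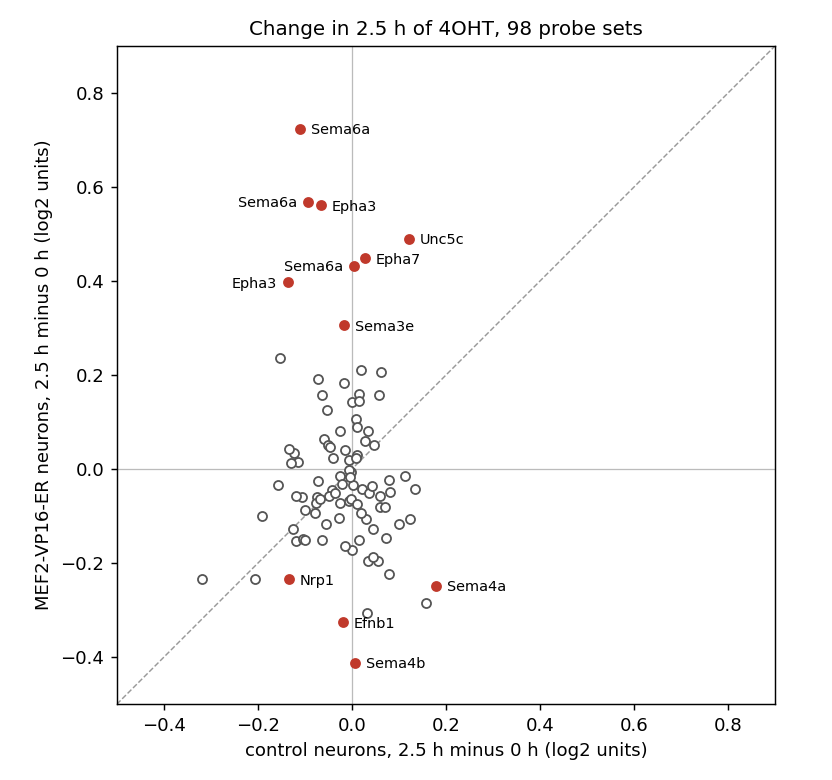
Change from 0 h to 2.5 h of 4OHT in MEF2-VP16-ER neurons (y axis, log2 units) against that in control neurons (x axis, log2 units) for the 98 probe sets; filled and named points were called in MEF2-VP16-ER neurons with the replicate block, and the dashed line marks equal changes. The 8 called higher reach 0.72 in MEF2-VP16-ER neurons, while control values span -0.32 to 0.18.

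Control neurons served as the measured background for the drug. Between 0 h and 2.5 h none of the 98 member probe sets was called, nor any probe set of the array (0% of all), by limma without the block. An unadjusted p under 0.05 was reached by 3 members and by 667 of all probe sets, and with the block 1 of all was called and no member. Values of the members ran from -0.32, on a probe set of Nrp1, to 0.18 for Sema4a.

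After 1 h of 4OHT no member was called in either fit, while 0.00322% of all probe sets were, in either direction (1 probe set). An unadjusted p under 0.05 was reached by 4 members and 1459 of all. Sema6a stood at -0.04 and 0.03 on its brighter probe sets and Epha3 at -0.03. The value farthest above 0 was that of Unc5cl (0.43 ± 0.12, adjusted p = 0.996) and the one farthest below was that of Sema4a (-0.34 ± 0.12). Of the 98, 30 were positive with a median of -0.05, against 44.1% and -0.02 over all probe sets, and after quantile normalization 39 were positive. The comparison at 1 h and the one of the constructs at 0 h share the 0 h arrays.

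The induction at 2.5 h minus that at 1 h asks whether a gene differed between the times. The members called were Sema6a, Epha3 and Sema3e, on the 2.5 h arrays used above. Without the block 1 member, Sema6a, was called higher (0.0387% of all probe sets) and none lower (0.00322% of all). With the block 5 probe sets of Sema6a, Epha3 and Sema3e were called higher (0.335% of all) and none lower (0.0644% of all). An unadjusted p under 0.05 was reached by 9 members and 1216 of all, without the block. Sema6a stood at 0.70 ± 0.09 on 1376601_at (adjusted p = 0.00801, 0.000359 with the block) and at 0.80 ± 0.18 on 1382868_at (0.274, 0.00132 with the block). Without the block the first was lost at 0.727, 0.17 and 0.228 without replicates 1, 2 and 3, and at 0.156 when the 4 groups of the contrast alone entered the fit. With the block the second was lost without replicate 2 (0.212).

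Epha3 stood at 0.66 ± 0.12 (0.0986, 0.000747 with the block) and at 0.68 ± 0.17 (0.438, 0.0021 with the block). With the block 1385053_at missed the threshold without replicate 1 (0.0501), 2 (0.0537) or 3 (0.0813), and 1385082_at did so too (0.0628, 0.194 and 0.0796). Sema3e gave 919, 1158 and 800.0 in MEF2-VP16-ER neurons at 1 h and 1235, 1461 and 1107 at 2.5 h, against 1127, 1263 and 811, then 1048, 1068 and 798, with the control fusion. The MEF2-VP16-ER values overlapped between the times, and each replicate was higher at 2.5 h. Its difference of 0.53 ± 0.27 was called with the block (0.0372), a call kept without control 1 h replicate 3 or control 2.5 h replicate 1, and lost without any other of the 12 arrays or any replicate number (up to 0.555).

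**Figure D5:**
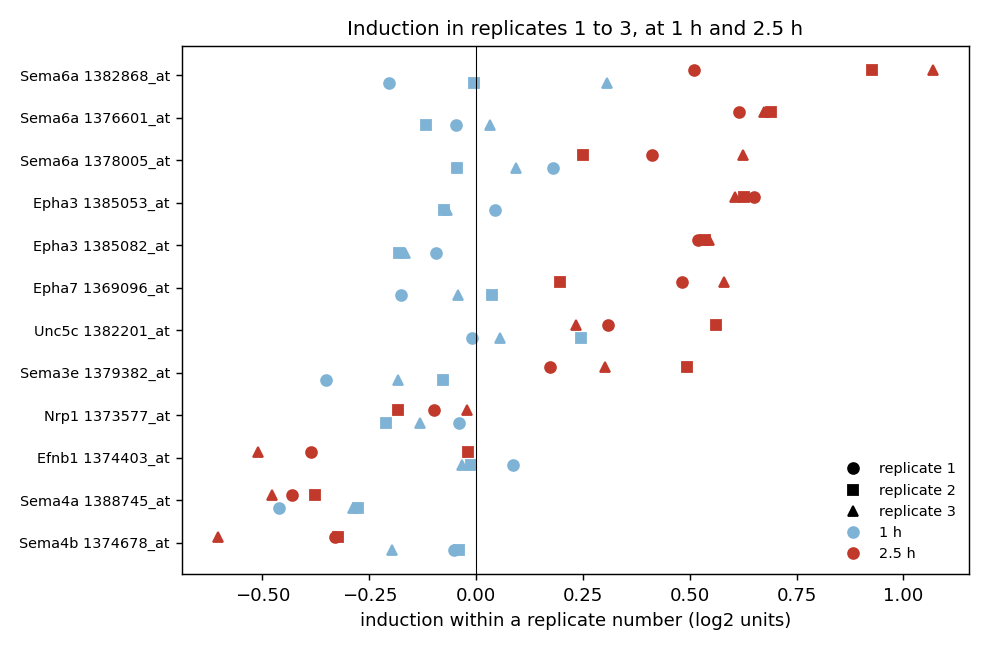
Induction (x axis, log2 units) within each replicate number for 12 probe sets (y axis), at 1 h in blue and at 2.5 h in red, with symbols for replicates 1 to 3. On 1376601_at of Sema6a and 1385053_at of Epha3 the 3 replicates at 2.5 h lie between 0.61 and 0.69, and at 1 h between -0.12 and 0.04.

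Before 4OHT no probe set was called between the 2 constructs by limma without the block (0% of all, and no member). An unadjusted p under 0.05 was reached by 7 members and 2736 of all, and with the block 1 of all was called and no member. The farthest member was Robo2, with 942, 871 and 781 in MEF2-VP16-ER neurons and 617, 729.8 and 517 in control neurons. These groups did not overlap, and the difference of 0.48 ± 0.12 missed the threshold (adjusted p = 0.426, 0.0892 with the block). Sema6a stood at 0.11 and 0.01 and Epha3 at 0.02 between the constructs at 0 h. On 1376601_at of Sema6a, the probe set at 0.11, all MEF2-VP16-ER arrays at 0 h lay above all control arrays at 0 h. That difference was not called.

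Genes that carry guidance signals into the cell, together with other guidance genes, were counted from a list of 83, of which 78 were measured on 147 probe sets. At 2.5 h 33 of the 78 were positive with a median of -0.01, and none was called without the block. With the block Rnd3, which binds plexins, was called higher on 1 of its probe sets (0.64 ± 0.18, adjusted p = 0.372, 0.0266 with the block). Rtn4r, the Nogo receptor that limits axon growth, stood at -1.10 ± 0.22 (0.0712, 0.00276 with the block). Cxcr4, the receptor of the chemokine Cxcl12, stood at -0.79 ± 0.17 (0.0879, 0.0108 with the block). These were the 2 genes called lower, and with the block 0.564% of all probe sets were called higher and 0.374% lower. The counts of this list are of genes and the shares, here and below, are of probe sets. No test compared them. The Cxcr4 probe set is of a kind whose probes can match other transcripts, and the other 2 probe sets of the gene stood at -0.75 and -0.62. Fits without single arrays were not run for this list.

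In MEF2-VP16-ER neurons alone Rtn4r fell by 0.86 ± 0.16 (adjusted p = 0.0133) and Cxcr4 fell by 1.02 ± 0.12 (0.000336), with no gene of the list called higher, against 0.283% of all probe sets called lower and 0.506% higher. With the block, where 0.999% of all were called lower and 1.33% higher, Boc, a hedgehog co-receptor (-0.46), and Flrt3, an adhesion protein that binds Unc5 receptors (-0.38), were also called lower. Rock2, a protein kinase (0.24), and Srgap2, a GTPase-activating protein that binds Robo1 (0.54 on 1 probe set), were called higher. In control neurons Flrt3 stood at -0.51 and Rtn4r at 0.24, and at 1 h none of the 78 genes was called in either fit.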

How the data were processed

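RNA of 18 samples was hybridised to Affymetrix arrays. The authors deposited 1 intensity per probe set and array on a linear scale, from 18.97 to 29640. Per the labels, RNA was extracted with an RNeasy kit and labelled with biotin. The normalization and the summarising software are not given in the sources used here. The deposited values were used without further normalization, and 57 Affymetrix control probe sets were left out.

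Arrays were grouped and numbered by the labels. Gene symbols came from the platform annotation: 20826 probe sets had 1 symbol, 436 several and 9780 none. The members and gene lists were chosen with earlier results of these data known. Models of log2(intensity + 16) with 6 group means were fitted in limma 3.58.1 (R 4.3.3) with eBayes (12 residual degrees of freedom, prior 2.89), adjusted over all 31042 probe sets within each contrast. Named were the members called in any of 6 contrasts with or without the block, the 3 highest and 3 lowest of each role group at 2.5 h, a fixed set of 12, and genes whose probe sets differed by over 0.5, 36 in all.

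Residuals of arrays with the same replicate number correlated above 0.1 in 44 of 45 pairs, and each array lay closest to one of its own number. The numbers were therefore taken to pair the arrays, and the block covered all arrays, those at 1 h included. The pair that fell short was MEF2-VP16-ER 0 h and 1 h of replicate 2, at 0.0677, so the pairing is less sure at 1 h. Figures were drawn with matplotlib 3.10.9. The fit without the block was tested on simulated data whose noise was independent between arrays. The fit with the block and the promoter search were not tested in this way. Whether any probe detects the constructs was not examined.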

Additional observations from a re-analysis of the deposited data

Results flagged for a closer look

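With the block, a change that differed between the 2 constructs by a test of the difference itself was called for 3 genes at 2.5 h. In the fit without the block Sema6a alone was called. Sema6a stood at 0.66 on 1376601_at, called by limma without the block (adjusted p = 0.00506), and at 0.84 on 1382868_at, called with the block (0.000438). Epha3 stood at 0.63 and 0.53 on 2 probe sets, both called with the block (0.000469 and 0.00703). Sema4a stood at -0.43, called with the block (0.0165). With the block the Sema4a call held in 8 of 12 fits that left out 1 array. It held in 0 of 3 that left out a replicate number, as did the call of Epha3 on 1385082_at. On these called probe sets the inductions were positive in 3 of 3 replicates for Sema6a and Epha3 and negative in 3 of 3 for Sema4a. The calls rest on these same replicates, so the shared signs are no separate support. The dimmest Epha3 probe set, 1369379_at, was not called and gave -0.19, -0.23 and -0.10 in replicates 1, 2 and 3. In each case the cause was not tested.

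Between the inductions at 1 h and 2.5 h, a difference was called for Sema6a at 0.70 without the block (0.00801) and at 0.80 with it (0.00132), for Epha3 at 0.66 and 0.68 with the block (0.000747 and 0.0021), and for Sema3e at 0.53 with the block (0.0372). These contrasts use the same arrays at 2.5 h as those above.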

How the results depend on the processing

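No member's called value changed sign under any alternative that was run. Fitting the replicate block moved counts from 55 to 291 of all probe sets and from 1 to 5 members at 2.5 h, from 13 to 124 and from 1 to 5 for the difference between the times, from 245 to 724 and from 5 to 12 in MEF2-VP16-ER neurons, from 1 to 9 of all at 1 h, and from 0 to 1 of all in control neurons and between the constructs at 0 h. Fitting the groups of a contrast alone gave 32 of all at 2.5 h, 75 of all and 3 members in MEF2-VP16-ER neurons, 1 of all and 0 members between the times, and 0 at 1 h. Testing 1 probe set per gene gave 0 members between the times and 2 of all at 1 h, and at 2.5 h the 1 member called was then Epha3. At 1 h quantile normalization gave 3 of all, and median centring, eBayes with trend and robust, and probe sets above the median level gave 2 each. Above the median level 7 of all were called between the times.

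Leaving out 1 array or a replicate number without the block gave 5 to 64 of all and 0 to 2 members at 2.5 h, 0 to 13 and 0 to 1 between the times, 52 to 225 and 0 to 5 in MEF2-VP16-ER neurons, 0 to 2 of all at 1 h and 0 to 1 of all in control neurons. The same refits with the block, which were added after the values were seen, gave 91 to 286 and 2 to 7 at 2.5 h. They gave 16 to 138 and 1 to 5 between the times, and 316 to 729 and 5 to 11 in MEF2-VP16-ER neurons. The fewest calls came from fits without a replicate number, which keep 2 arrays a group. Pseudocounts of 1 and 64 kept all these counts within 1.5 times. Calls of presence on each array were not used here, so a dim probe set with a value near 0 says little about its gene.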

Other observations

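Some guidance genes had a wide spread between replicates on their brightest probe set, the only one given here for each. Netrin 1, the secreted cue that binds Dcc and Unc5 receptors, gave 123, 115 and 231 in replicates 1, 2 and 3 of control neurons at 0 h and 123, 123 and 240.3 at 2.5 h. In MEF2-VP16-ER neurons it gave 107, 149 and 175 and 112, 126 and 221, with replicate 3 the highest in each of these 4 groups. Plexin B1 gave 601, 553 and 807 in control neurons at 0 h and 585, 615 and 1004 in MEF2-VP16-ER neurons at 2.5 h, again with replicate 3 the highest. Nrp2 ran the other way, with 1235, 1634 and 1103 in control neurons at 0 h and 1240, 1388 and 983 in MEF2-VP16-ER neurons at 2.5 h. The summed intensity of oligodendrocyte and precursor markers also varied within groups, from 9252 to 17534 among the 3 control arrays at 0 h, and that of fibroblast and meningeal markers from 4238 to 7811. These differences were not tested.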
